A study of Mus musculus with 2 samples.

Results

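Interferon-stimulated genes are the genes that cells switch on when interferon, a family of secreted antiviral and inflammatory proteins, binds its receptors. The 41 genes described here were chosen by symbol from the 32285 genes counted in each library, and all 41 were found. They fall into 3 sets by their textbook inducer. The type I set holds 14 genes that type I interferons induce most strongly, among them the Ifit genes, Isg15 and Rsad2. The IFN-gamma set holds 16 genes best known as targets of interferon gamma, among them the guanylate-binding proteins (Gbp genes) and the immunity-related GTPases (Irgm1, Irgm2, Igtp, Iigp1). The shared set holds 11 genes that both kinds of interferon induce, among them Ifitm2, Ifitm3, Bst2 and Stat2.

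Kidney cells came from C57BL6/J males, 10 to 12 weeks old, that had been given saline, or cisplatin at 20 mg/kg, a chemotherapy drug that injures the kidney tubule, with the kidneys taken 72 h later. Each treatment gave 1 library pooled from 10 kidneys of 5 mice, so mice cannot be separated and no comparison between treatments has a replicate. Dissociated cells were enriched with magnetic beads against CD31, an endothelial protein, and then against podoplanin, a protein of lymphatic endothelium that podocytes also carry. The labels call the cells lymphatic endothelial, but lymphatic markers such as Prox1, Lyve1 and Ccl21a summed to 0 to 118 CPM (counts scaled to a total of 1000000 per gate) in every cell gate of either library.

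The libraries differed in depth and composition. In saline there were 5879496 transcript counts (unique molecular identifiers, UMIs) and in cisplatin 19994105. Barcodes holding at least 500 UMIs and at most 20% mitochondrial UMIs numbered 627 in saline (median 896 UMIs) and 1729 in cisplatin (median 746 UMIs), and no barcode sequence with at least 500 UMIs occurred in both libraries. They were sorted into gates by marker genes that are not among the 41. Saline and cisplatin gave 249 and 96 capillary, 15 and 43 glomerular, 81 and 8 arterial and 62 and 27 large-vessel endothelial barcodes. They also gave 147 and 1076 tubule and 3 and 62 leukocyte barcodes. Because the arterial gate held only 8 cisplatin barcodes, the arterial and large-vessel gates were also read together (143 and 35 barcodes), a choice made after seeing the data. Barcodes with 1 to 100 UMIs, taken as droplets that hold free RNA from broken cells and no cell, gave 3703779 and 2140605 UMIs, of which 3.84% and 30.6% were mitochondrial. This window does not take in like barcodes in each library. Over barcodes with 10 or more UMIs the median was 37 UMIs in saline and 146 in cisplatin. In cisplatin, 354063 of the 376309 barcodes in the window held 1 to 20 UMIs, and 69597 barcodes lay between it and 500 UMIs. Cisplatin ratios to free RNA and estimated free RNA shares rest on this window, and its fitness was not tested. Doublets were not called.

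In outline, interferon alpha and beta signal through the receptor Ifnar1/Ifnar2 and the kinases Jak1 and Tyk2 to a complex that holds Stat2 and Irf9 and binds a DNA element called ISRE. Interferon gamma signals through Ifngr1/Ifngr2 to factors that bind an element called GAS. The products of the induced genes include an RNA-binding protein that blocks viral translation (Ifit1), the ubiquitin-like modifier Isg15 and the antiviral enzyme viperin (Rsad2). Others are membrane proteins that hinder viral entry or release (Ifitm3, Bst2) and GTPases that attack vacuoles containing pathogens (Gbp and Irgm families).

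The promoters of several genes that carry the results below are shown with these elements. A 10-base ISRE core (GAAA, any 2 bases, GAAA, or its reverse complement) and a 9-base GAS (TTCNNNGAA, its own reverse complement) were searched on both strands of the 250 bases before each start in RefSeq's promoters (GRCm38.p6). The 2 motifs may overlap each other. Each line gives the 130 bases before the start in RefSeq, 5′ to 3′ on the gene's strand, with motif matches in capitals. GENCODE starts differ for some genes, so that 18 bases of the Ifit1 and 11 of the Cmpk2 window lie in a GENCODE exon.
Ifit1, chr19:34640759-34640888, plus strand: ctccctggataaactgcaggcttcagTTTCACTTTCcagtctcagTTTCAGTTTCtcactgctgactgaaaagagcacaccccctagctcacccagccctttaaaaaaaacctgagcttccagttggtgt
Ifit3, chr19:34583399-34583528, plus strand: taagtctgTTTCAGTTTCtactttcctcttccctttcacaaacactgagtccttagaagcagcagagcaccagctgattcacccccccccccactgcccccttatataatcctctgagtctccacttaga
Isg15, chr4:156200819-156200948, minus strand: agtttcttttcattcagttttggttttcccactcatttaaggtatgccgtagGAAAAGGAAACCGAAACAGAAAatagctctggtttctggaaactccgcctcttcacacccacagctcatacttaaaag
Rsad2, chr12:26456453-26456582, minus strand: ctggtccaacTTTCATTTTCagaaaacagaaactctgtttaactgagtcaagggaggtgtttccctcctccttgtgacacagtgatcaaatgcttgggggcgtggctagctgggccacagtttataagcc
Cmpk2, chr12:26469085-26469214, plus strand: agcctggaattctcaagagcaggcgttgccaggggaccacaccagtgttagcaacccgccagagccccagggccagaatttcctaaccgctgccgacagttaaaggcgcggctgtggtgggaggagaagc
Gbp7, chr3:142530206-142530335, plus strand: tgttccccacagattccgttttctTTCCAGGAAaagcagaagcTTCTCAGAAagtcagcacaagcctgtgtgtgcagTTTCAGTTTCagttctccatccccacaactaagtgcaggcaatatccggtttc
Igtp, chr11:58199426-58199555, plus strand: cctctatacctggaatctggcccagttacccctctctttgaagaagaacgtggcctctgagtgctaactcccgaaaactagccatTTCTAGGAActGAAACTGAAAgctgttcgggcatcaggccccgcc
Irgm2, chr11:58214847-58214976, plus strand: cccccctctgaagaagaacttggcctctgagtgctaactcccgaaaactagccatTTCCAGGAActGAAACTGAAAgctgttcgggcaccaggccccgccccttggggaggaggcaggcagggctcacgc

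In these windows the type I genes Ifit1, Ifit3, Isg15 and Rsad2 held ISRE cores and no GAS, while the IFN-gamma genes Gbp7, Igtp and Irgm2 held both elements. Ifit1 held 2 separate ISRE cores in its window, and Isg15 held 3 that overlap in 1 run. Gbp7 held 2 GAS matches upstream of 1 ISRE core. Igtp and Irgm2, which encode related GTPases, each held a GAS directly before an ISRE core, and 94 of 100 aligned bases (94.0%) of their promoters were identical. Cmpk2, which shares its neighbourhood with Rsad2, held neither motif in these bases, which says only that these letters are absent from the window.

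Of the 41 genes, 30 had a promoter entry. An ISRE core lay in 5 of 11 type I (45.5%), 9 of 11 IFN-gamma (81.8%) and 4 of 8 shared promoters, against 936 of all 27025 genes' promoters (3.46%). A GAS lay in 1 of 11 type I (9.09%), 7 of 11 IFN-gamma (63.6%) and 1 of 8 shared promoters (12.5%), against 2197 of all 27025 (8.13%). Several of these promoters are copies of one another, so they are not independent. Usp18, Rtp4, Dhx58, Gbp4, Gbp6, Gbp9, Iigp1, Nlrc5, Ifi27l2a, Zbp1 and Parp14 had no entry.

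All 41 genes are protein coding, and many lie in clusters of duplicated genes in GRCm38. The 4 Ifit genes span chr19:34550694-34650009, and the Gbp genes form a group of 4 at chr3:142493978-142638008 and a group of 3 at chr5:105077630-105293698. Irgm1, Tgtp1, Tgtp2 and Ifi47 share chr11:48861968-49096974, and Igtp and Irgm2 share chr11:58199556-58222782. GENCODE places the start of Irgm2 at 58199618, within Igtp (58199556 to 58207591) and far upstream of the RefSeq start used for its promoter, so the counts of these overlapping genes are uncertain. Rsad2 and Cmpk2 are transcribed away from each other from starts 12752 bases apart. Duplication matters for counting, because a read that fits more than 1 gene cannot be assigned. The share of distinct 31-base words that also occur in another gene was 84.4% for Tgtp1, 90.5% for Tgtp2, 74.2% for Gbp6, 61.8% for Ifit3, 55.2% for Ifit3b and 55.5% for Ifitm2, so values of these genes are uncertain. A 3′ count is not a level per length, so the shares of UMIs given below for single genes describe the counts and do not rank the genes' expression.

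In both libraries the type I and IFN-gamma sets stood highest in the capillary gate. The shared set was spread more evenly over endothelium. In saline it stood at 5195 CPM in capillary, 4480 CPM in arterial and 4441 CPM in large-vessel barcodes. The type I set reached 3262 CPM (95% interval 3060 to 3473) in saline capillary barcodes and 3052 CPM (2862 to 3251) in cisplatin capillary barcodes. In free RNA the same set stood at 439 CPM in saline and 398 CPM in cisplatin. Intervals are exact Poisson for CPM, conditional binomial for ratios and Clopper-Pearson for shares, and all of them cover counting error only.

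**Figure D1:**
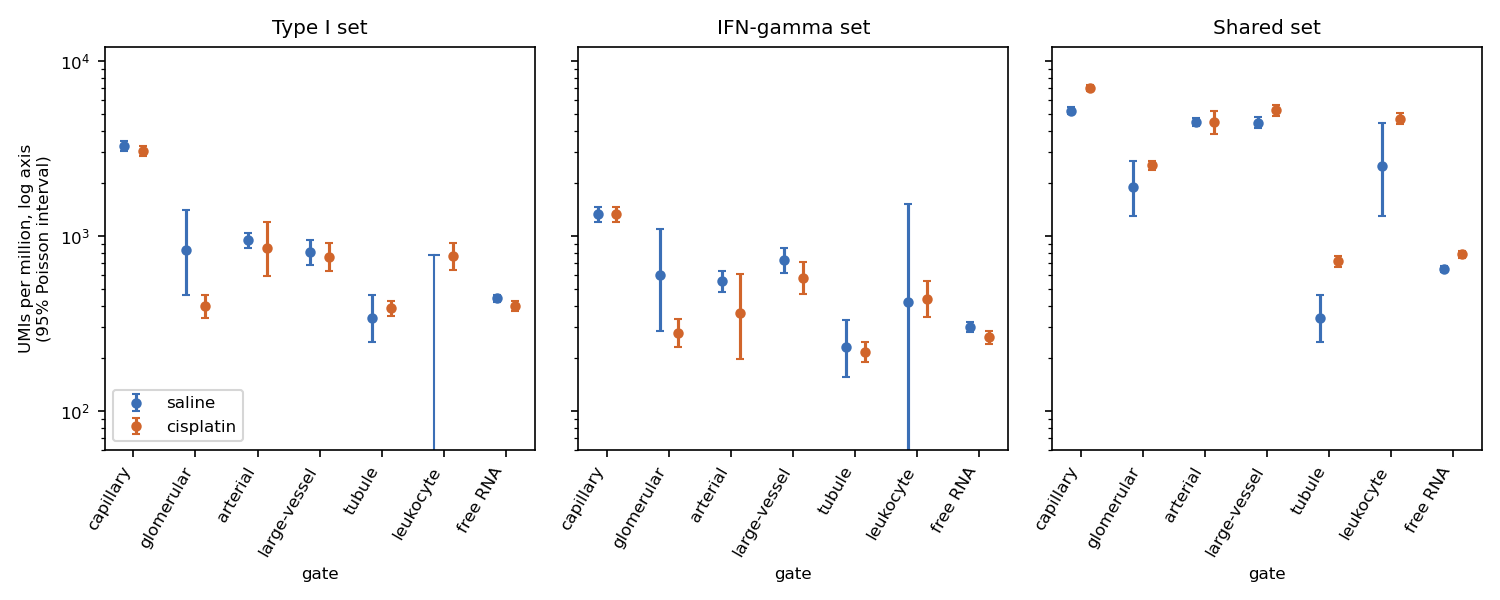
Summed level of the 3 gene sets (CPM, log axis) in each gate and in free RNA, saline and cisplatin side by side, with exact Poisson 95% intervals that cover counting error only. The capillary gate lies highest for the type I set in both libraries (3262 and 3052 CPM), and the 3 saline leukocyte barcodes held 0 type I UMIs.

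The capillary gate exceeded free RNA for nearly every gene. A gene is called higher or lower where the ratio is at least 1.5-fold with an interval that leaves out 1, and is measured where it has at least 20 UMIs over the pair compared. In saline, 38 of 40 measured genes were higher in the capillary gate than in free RNA and 0 were lower, against 22.8% of all measured genes higher. In cisplatin, 36 of 40 were higher, against 25.8% of all. As sets in saline, type I genes were 7.43-fold (6.86 to 8.05), IFN-gamma genes 4.41-fold and shared genes 8.03-fold above free RNA. In cisplatin these ratios were 7.67 (6.98 to 8.42), 5.06 and 8.96. Free RNA was estimated to supply 5.82% of UMIs in the saline and 15.0% in the cisplatin capillary gate. Mitochondrial UMIs made up 30.6% of cisplatin free RNA, but 3.88% (leukocyte) to 11.3% (tubule) of UMIs in the cisplatin gates. With all UMIs as the denominator, this raises every cisplatin ratio of these genes to free RNA, here and below. Ratios of gates to free RNA without mitochondrial genes are not given here.

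**Figure D2:**
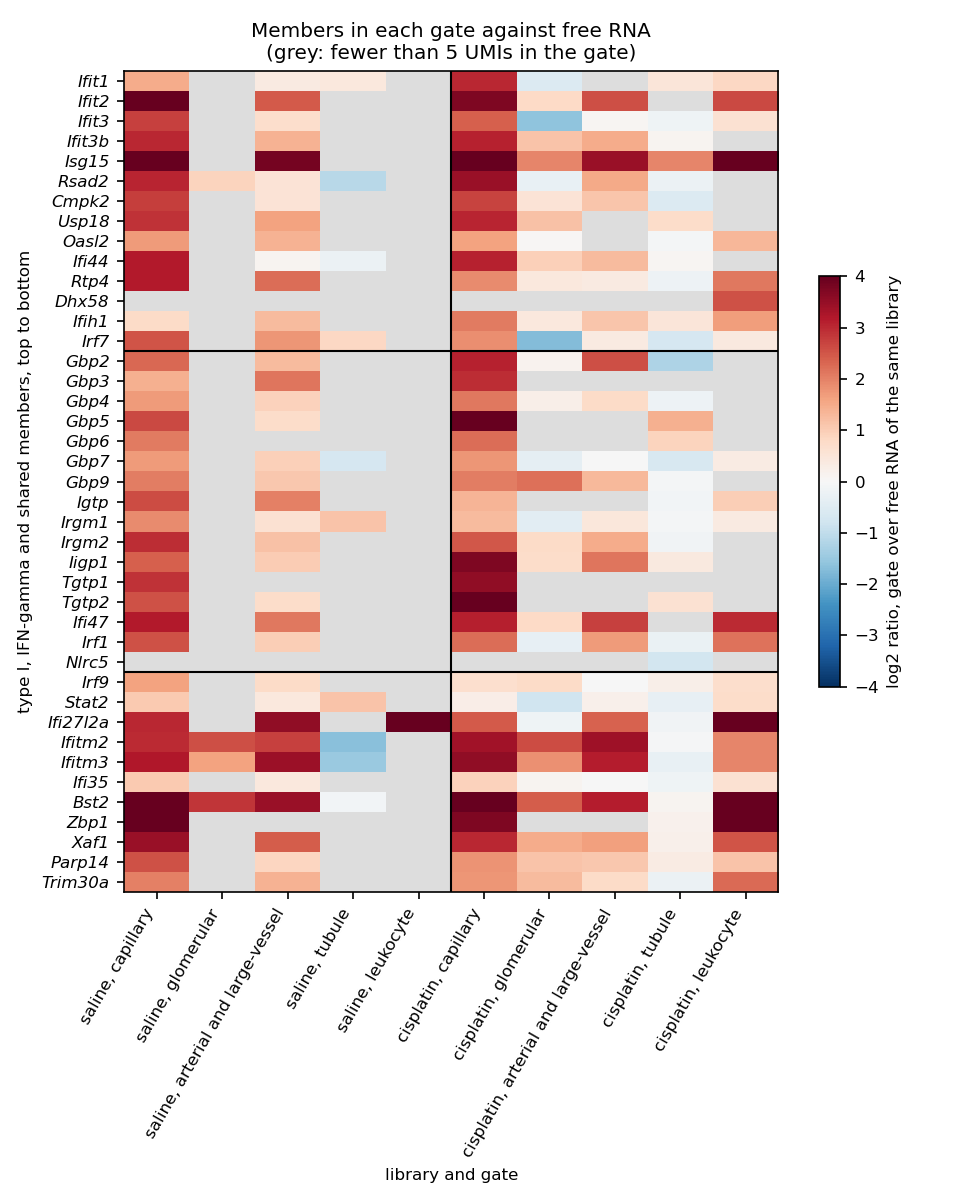
Colour map of the log2 ratio of each gene's level in a gate to its level in the free RNA of the same library, with genes in rows, libraries and gates in columns, and grey for fewer than 5 UMIs in the gate. The capillary columns are above 0 for nearly all genes (38 of 40 called higher in saline), while most tubule entries lie near or below 0 or are grey.

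Larger vessels carried the type I and IFN-gamma sets at a lower level. In the saline arterial gate alone, 20 of 33 measured genes were lower than in capillaries, against 10.00% of all genes, and Ifi27l2a was higher, against 9.62%. In saline, the arterial and large-vessel gates together had 897 CPM of the type I set and 610 CPM of the IFN-gamma set, which was 0.275 (0.247 to 0.306) and 0.459 (0.397 to 0.531) of the capillary level. The shared set differed less, at 0.860 of the capillary level. Of 35 measured genes, 24 were lower in larger vessels and 0 higher, against 10.5% and 10.1% of all genes. Rsad2 stood at 1445 CPM in capillary and 253 CPM in larger vessels (ratio 0.175). Ifi44, a gene of unsettled antiviral function, stood at 0.119, and Cmpk2, a mitochondrial nucleotide kinase that neighbours Rsad2, stood at 0.212. Irgm2 was at 0.292, the transcription factor Irf1 at 0.338 and Iigp1 at 0.382. Isg15 (0.437), Ifit1 (0.455), Bst2 (0.507) and Gbp7 (0.600) fell below capillary levels by less. The median depth was 868 UMIs in the saline capillary and 2357 in the combined saline larger-vessel gate. With every barcode thinned to 500 UMIs, and under each other alternative run, the combined ratio for the type I set stayed between 0.172 and 0.323.

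Even so, larger vessels lay above free RNA. The type I set was 2.04-fold and the IFN-gamma set 2.02-fold above free RNA in saline, and 1.96-fold and 2.03-fold in cisplatin. In saline, 25 of 38 measured genes were higher than in free RNA, against 26.7% of all, and in cisplatin 14 of 33, against 20.8%. In the 8 cisplatin arterial barcodes alone, 7 of 31 were higher (background 10.4%) and 0 lower (background 3.34%). One cisplatin barcode supplied 43.8% of the combined gate's type I UMIs, so the cisplatin figure rests largely on it.

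Glomerular endothelium carried less of both sets than capillaries. In cisplatin, where the gate held 43 barcodes, the type I set stood at 395 CPM and the IFN-gamma set at 279 CPM, 0.129 (0.109 to 0.152) and 0.210 (0.170 to 0.257) of the capillary level. A single barcode of 116215 UMIs held 26.9% of the gate's type I UMIs, and without the richest barcode of each gate the type I ratio was 0.143 (0.117 to 0.172). Without barcodes holding markers of another class, which left 17 capillary and 3 glomerular barcodes, it was 0.556 (0.171 to 1.41). Of 36 measured genes 32 were lower and 0 higher, against 6.99% and 11.6% of all genes. Rsad2 fell from 1046 CPM in capillary to 76.1 CPM in glomerular barcodes (0.0728). Ifit3 (0.0589), Irf7 (0.0782), the factor that amplifies type I interferon production, Ifit1 (0.0795) and Isg15 (0.0847) were lower to a similar degree, while Iigp1 stood at 0.121 and Gbp7 at 0.223. Zbp1, a sensor of Z-form nucleic acid that can trigger cell death, had 24 UMIs in capillary and 0 in glomerular barcodes. Against free RNA the 2 sets were at 0.991 and 1.06, with the estimated free RNA share at 25.0%. By contrast the shared set was 3.24-fold above free RNA. In the 15 saline glomerular barcodes 6 of 37 measured genes were higher than in free RNA (background 7.09%), among them Ifi44, Isg15 and Gbp9. The cisplatin glomerular gate also held podocyte markers at 1599 CPM (0 in saline), and their part in these values was not tested.

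Tubule barcodes did not exceed free RNA for either main set. The type I set stood at 340 CPM in saline and 385 CPM in cisplatin, 0.775 (0.561 to 1.05) and 0.968 (0.861 to 1.09) of free RNA, and the IFN-gamma set was at 0.770 and 0.826. In saline 0 of 37 measured genes were higher than in free RNA (background 5.91%) and 4 were lower (background 1.85%), namely Ifitm2, Ifitm3, Rsad2 and Parp14. In cisplatin 1 of 34 was higher (background 18.2%), Isg15 at 3.94 (2.19 to 7.34), and Irf7 (0.627) and Gbp7 (0.639) were lower (background 5.59%). Free RNA was estimated to make up 54.9% of saline and 71.1% of cisplatin tubule UMIs, so transcripts of the tubule cells and transcripts shed by other cells cannot be told apart here. The gate also left out barcodes with endothelial or leukocyte markers at 1% of UMIs or more. Pan-endothelial markers stood at 1384 CPM in saline tubule barcodes and 2679 CPM in saline free RNA (1051 and 1643 CPM in cisplatin). The part of this rule in the ratios to free RNA was not tested.

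Leukocytes showed the same genes in other proportions. The saline gate held 3 barcodes with 0 type I UMIs, and there only Ifi27l2a, 1 of 37 measured genes, was higher than in free RNA (background 2.89%). The 62 cisplatin barcodes held more. Their type I set stood at 768 CPM (128 UMIs), 1.93-fold (1.59 to 2.33) above free RNA, the IFN-gamma set at 438 CPM (1.67-fold), and the shared set at 4665 CPM (5.96-fold). The larger mitochondrial share of free RNA, 30.6% against 3.88% in this gate, raises these ratios. Of 36 measured genes 16 were higher than in free RNA (background 16.0%), led by Zbp1 (32.1), the virus-tethering protein Bst2 (23.1), Isg15 (22.1) and Ifi27l2a (20.6), a small mitochondrial protein of the Ifi27 family. Ifi47 (7.71), Irf1 (4.45) and Rtp4 (4.19) were also higher, while Rsad2 (0.251) and Ifi44 (0.171) were lower (background 22.6%).

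Set beside cisplatin capillaries, leukocytes had 0.252 (0.208 to 0.303) of the type I and 0.329 of the IFN-gamma level. Of 34 measured genes, 15 were lower, against 30.4% of all genes, and 2 were higher, against 13.5%. The higher genes were Ifi27l2a, at 369 CPM in capillary and 1405 CPM in leukocytes (3.81), and Zbp1, at 76.3 and 180 CPM (2.36). Rsad2 had 329 UMIs in capillary and 4 UMIs in leukocyte barcodes (ratio 0.0230), and Ifi44 had 1 leukocyte UMI (0.0203). Iigp1 had 2 (0.0484), while Isg15 stood at 0.488. With only barcodes of 500 or more but under 1000 UMIs in both gates, a setting added after seeing the data, the type I ratio was 1.15 (0.658 to 1.98), so no difference was detectable there.

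The genes with the most UMIs differed by cell type. Rsad2 made up 44.3% of type I UMIs in saline and 34.3% in cisplatin capillaries, followed by Ifi44 (16.3% and 9.69%) and Isg15 (8.41% and 12.5%). In cisplatin leukocytes Isg15 led with 24.2%, followed by Rtp4, a chaperone of membrane receptors, with 11.7% and Oasl2, of the oligoadenylate synthetase family, with 10.9%. Among IFN-gamma genes, Gbp7 (16.1% and 17.9%), Iigp1 (13.9% and 18.6%) and Irf1 (12.6% and 8.59%) led in capillaries, and Irf1 led in leukocytes with 24.7%. In the shared set, Ifitm3 made up 32.9% and 50.2% in capillaries, and Ifi27l2a led in leukocytes with 30.1%.

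The balance of type I to IFN-gamma transcripts was higher in capillaries than in free RNA. Type I genes gave 71.1% (68.6 to 73.5) of the UMIs of these 2 sets in saline and 69.6% (67.1 to 72.0) in cisplatin capillaries. In the combined larger-vessel gate the share was 59.5% and 59.3%, in the glomerular gate 58.3% and 58.6%, and in free RNA 59.3% and 60.2%. The arterial gate alone was at 63.1% and 70.2%. Within capillaries the intervals of the treatments overlap.

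Summed over all kept barcodes, the 41 genes stood at 6225 CPM in saline and 3396 CPM in cisplatin. The mix of cells differed as well. Capillary barcodes were 39.7% of kept barcodes in saline and 5.55% in cisplatin, while tubule barcodes rose from 23.4% to 62.2%. Even at 5.55% of barcodes, the cisplatin capillary gate held 45.5% of all type I and 37.0% of all IFN-gamma UMIs of kept barcodes. Comparisons between treatments are therefore given within gates.

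Within the capillary gate neither main set differed clearly between treatments. The type I set had a cisplatin to saline ratio of 0.936 (0.855 to 1.02), and the IFN-gamma set stood at 1328 CPM in saline and 1332 CPM in cisplatin, a ratio of 1.0 (0.872 to 1.15). The shared set was higher at 5195 and 7015 CPM (1.35, 1.26 to 1.44). Of 38 measured genes, 4 were higher and 5 lower in cisplatin, against 9.44% and 12.1% of all measured genes, which is near the background in both directions. More were higher in the stricter capillary gate, 10 of 37 against 11.0% of all genes, and with free RNA subtracted, 9 of 38 against 10.9%. In the main capillary gate the median log2 ratio of the 38 genes was 0.01, against -0.07 over all measured genes. Dhx58, Gbp6 and Nlrc5 had too few UMIs to be measured.

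**Figure D3:**
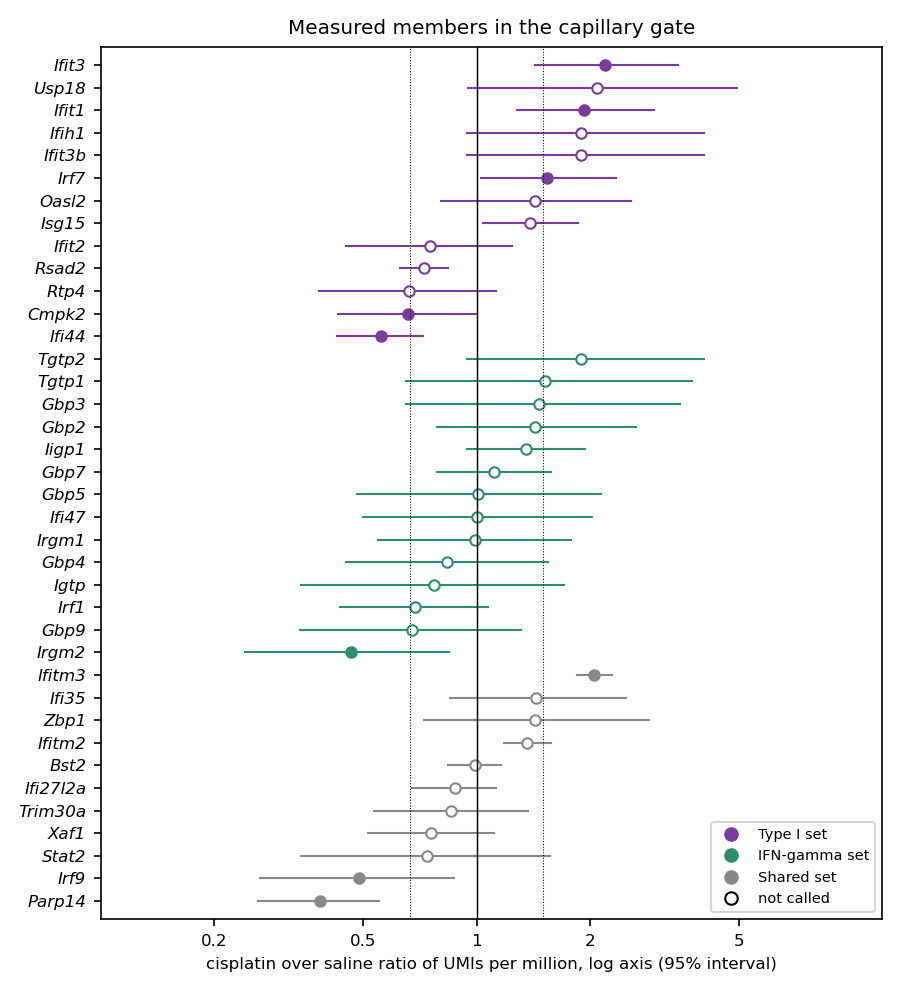
Cisplatin to saline ratio of each measured gene in the capillary gate (log scale), with exact 95% intervals that cover counting error only, coloured by set, filled where called, with dotted lines at 1.5-fold. Ratios lie on both sides of 1, with Ifit3, Ifitm3, Ifit1 and Irf7 called higher and Parp14, Irgm2, Irf9, Ifi44 and Cmpk2 called lower.

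The genes that were higher came from the type I and shared sets. Ifit1 rose from 120 CPM (36 UMIs) to 232 CPM (73 UMIs), a ratio of 1.93 (1.28 to 2.96). Its neighbour Ifit3 rose from 107 to 235 CPM (32 and 74 UMIs), a ratio of 2.20 (1.43 to 3.44), and shares 61.8% of its sequence words with other genes. Ifit1 encodes a protein that binds foreign RNA. The windows shown held 2 ISRE cores for Ifit1 and 1 for Ifit3. Isg15 and Rsad2, which were not called, held ISRE cores as well. Irf7 rose from 134 to 207 CPM (40 and 65 UMIs), 1.54-fold (1.03 to 2.35). Ifitm3 rose from 1709 to 3522 CPM (511 and 1108 UMIs), 2.06-fold (1.85 to 2.29), and supplied most of the change in the shared set.

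Other genes moved the opposite way. Parp14, an ADP-ribosyltransferase, fell from 358 to 137 CPM (107 and 43 UMIs), a ratio of 0.382 (0.262 to 0.549). Ifi44 fell from 532 to 296 CPM (159 and 93 UMIs), a ratio of 0.556 (0.426 to 0.722), and Cmpk2 from 194 to 127 CPM, a ratio of 0.655 (0.427 to 0.997). Irgm2 fell from 117 to 54.0 CPM (35 and 17 UMIs; 0.462, 0.242 to 0.846). Irf9, the DNA-binding partner of Stat2, fell from 124 to 60.4 CPM (37 and 19 UMIs; 0.488, 0.265 to 0.870). The calls in both directions, 4 higher and 5 lower of 38, were near the background of 9.44% and 12.1%. They describe single genes and are no result about a set.

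Several well-counted genes were not called. Rsad2 stood at 1445 CPM (432 UMIs) in saline and 1046 CPM (329 UMIs) in cisplatin, a ratio of 0.724 (0.625 to 0.837), short of 1.5-fold. Isg15 stood at 274 and 381 CPM (1.39, 1.04 to 1.86), Iigp1 at 184 and 248 CPM (1.35), Gbp7 at 214 and 238 CPM (1.11) and Irf1 at 167 and 114 CPM (0.684). Bst2 was level at 984 and 973 CPM (0.989), and Ifitm2 stood at 1050 and 1434 CPM (1.36, 1.18 to 1.58).

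Capillary results between treatments depended on the depth of the barcodes. Among barcodes with at least 1000 UMIs (90 saline and 56 cisplatin), the type I set stood at 2797 CPM (2559 to 3051) in saline and 3220 CPM (3016 to 3434) in cisplatin, a ratio of 1.15. Among those with at least 500 but under 1000 UMIs (159 and 40), it stood at 3982 CPM (3629 to 4360) and 1235 CPM (850 to 1735), a ratio of 0.310, and the IFN-gamma ratio was 0.50. The direction of the type I difference thus turned with depth. The shallow cisplatin barcodes also had 10.8% mitochondrial UMIs, against 1.26% in shallow saline barcodes, tubule markers at 4193 against 1501 CPM, and capillary markers at 13439 against 22170 CPM. Their part in the difference was not tested.

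**Figure D4:**
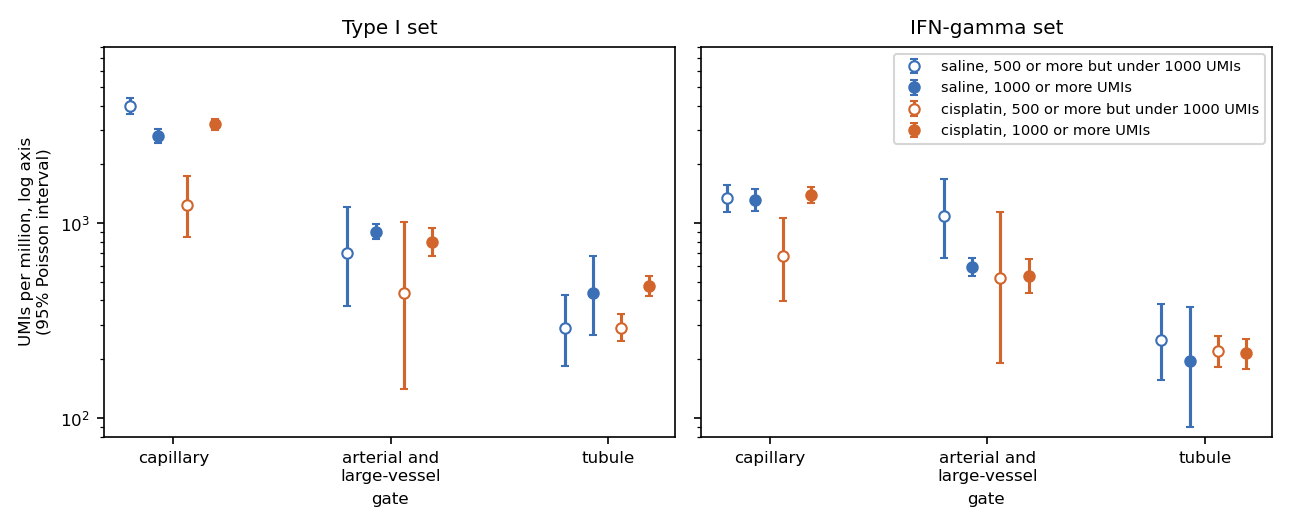
Level of the type I and IFN-gamma sets (CPM) on a log axis in barcodes of at least 500 but under 1000 UMIs (open) and of at least 1000 UMIs (filled), in the capillary, combined larger-vessel and tubule gates of both libraries, with exact Poisson 95% intervals that cover counting error only. In capillaries cisplatin lies below saline in the shallow barcodes (1235 against 3982 CPM for type I) and above it in the deeper ones (3220 against 2797 CPM).

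Single genes differed in whether their direction turned with depth. In shallow and deeper barcodes respectively, the ratio of Rsad2 was 0.205 and 0.923, that of Isg15 0.209 and 1.86, that of Ifit1 0.732 and 2.45, that of Irf7 0.627 and 2.06 and that of Ifitm3 0.946 and 1.97. Ifi44 was at 0.155 and 0.767, so Rsad2 and Ifi44 were below 1 in both. Irgm2 (0.366 and 0.439) and Parp14 (0.414 and 0.444) were below 1 in both as well, while Ifit3 was above 1 in both (2.20 and 1.98). Of the 9 genes called in the capillary gate, Ifit1, Irf7 and Ifitm3 turned direction in the shallow barcodes, where cisplatin counts are small.

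Per barcode, type I transcripts were found in most saline capillary barcodes, while in cisplatin more of the UMIs lay in a few barcodes. The 5 barcodes richest in type I genes held 13.9% of the gate's type I UMIs in saline and 35.8% in cisplatin. For IFN-gamma genes these shares were 19.6% and 36.5%. At least 1 type I gene was detected in 89.2% of saline and 67.7% of cisplatin capillary barcodes. After thinning each barcode to 500 UMIs, so that depth is equal, the shares were 75.5% and 44.8%. As a background, the thinned shares in tubule barcodes were 12.9% and 13.5% (unthinned 21.8% and 22%), where the median depth was 685 and 737 UMIs against 868 and 1242 in capillaries. At least 1 IFN-gamma gene was detected in 62.2% and 60.4% of capillary barcodes, or 44.6% and 37.5% after thinning, against thinned tubule shares of 12.2% and 9.94%. Rsad2 alone was detected in 68.3% of saline and 42.7% of cisplatin capillary barcodes (51.8% and 21.9% thinned), against 6.12% and 6.97% of tubule barcodes (2.72% and 3.53% thinned).

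Some capillary barcodes held several genes of a set, and fewer did at equal depth. At least 3 type I genes were detected in 35.3% of saline and 37.5% of cisplatin capillary barcodes (12.0% and 9.38% thinned), and at least 3 IFN-gamma genes in 15.3% and 34.4% (4.42% and 8.33% thinned). Thinning also makes each barcode count equally in a sum. The summed type I ratio of cisplatin to saline was then 0.667 (0.539 to 0.821), against 0.936 with all UMIs. It was 0.619 with equal weight per barcode and 1.15 in barcodes of at least 1000 UMIs. The thinned ratio thus reflects the weight given to shallow barcodes.

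**Figure D5:**
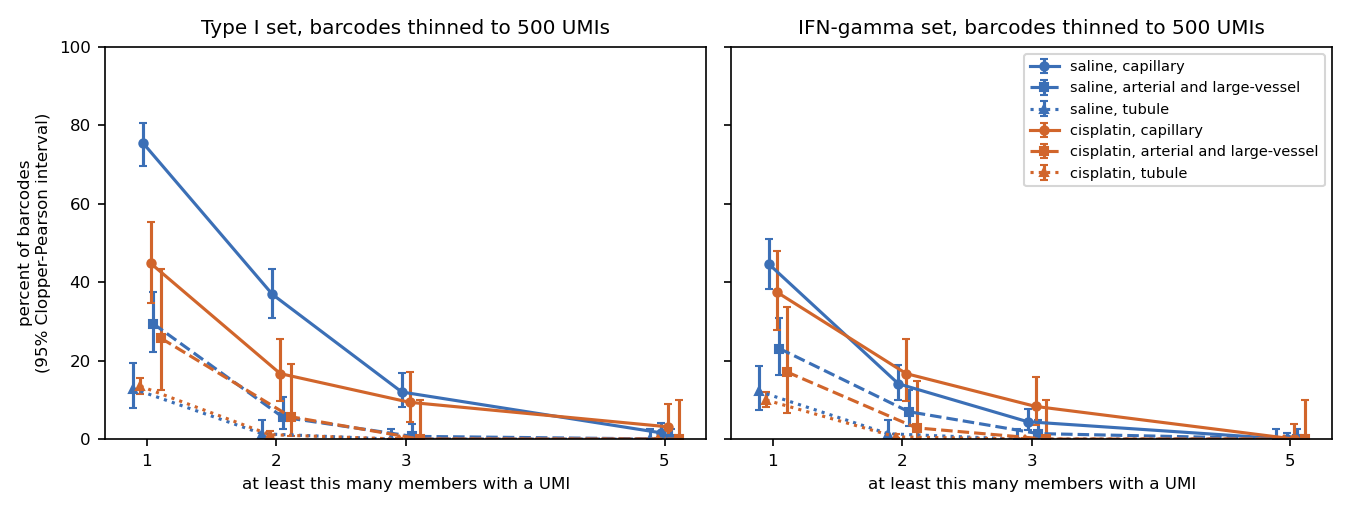
Percent of capillary, larger-vessel and tubule barcodes with at least 1, 2, 3 or 5 genes of the type I and the IFN-gamma set, after thinning each barcode to 500 UMIs, with exact Clopper-Pearson 95% intervals. Capillary shares for at least 1 gene lie above tubule shares in both libraries, and the saline capillary gate is highest for at least 1 type I gene (75.5% against 44.8% in cisplatin).

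IFN-gamma genes were found more often in barcodes that also held a type I gene. In saline capillaries an IFN-gamma gene was found in 63.1% of barcodes with a type I gene and in 55.6% (15 of 27) of those without (47.3% and 36.1% thinned). In cisplatin the shares were 76.9% and 25.8% (53.5% and 24.5% thinned). Within sets, Ifit3 was found in 22.6% of saline barcodes with Ifit1 and 7.80% of those without, and in 52.2% and 16.4% in cisplatin. Gbp7 was found in 48.7% of saline barcodes with Iigp1 and 13.8% of those without (36.4% and 7.93% thinned), and in 61.5% and 15.7% in cisplatin (12.5% and 6.82% thinned). For the neighbouring genes Rsad2 and Cmpk2, Cmpk2 was found in 22.9% of saline barcodes with Rsad2 and 10.1% of those without (9.30% and 7.50% thinned). Deeper barcodes detect more of every gene, and the thinned shares lie closer together for most of these pairs. In tubule barcodes an IFN-gamma gene was found in 21.9% of saline barcodes with a type I gene and 15.7% of those without (21.1% and 10.9% thinned), and in 21.5% and 15.0% in cisplatin (8.97% and 10.1% thinned). In points, the unthinned gap in saline capillaries was thus about as small as that in tubule barcodes, and the wide gap was in cisplatin capillaries.

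In the larger vessels the treatments differed for few genes. The combined type I set stood at 897 CPM in saline and 779 CPM in cisplatin (0.868, 0.720 to 1.04), and the IFN-gamma set at 610 and 535 CPM (0.877). Of 32 measured genes Ifitm2 was higher, from 890 to 1436 CPM (1.61, 1.39 to 1.87), against 6.33% of all genes, and 6 were lower, against 11.5%. The 6 were Ifi27l2a (608 to 346 CPM, 0.570), Bst2 (498 to 306 CPM, 0.613), Gbp3 (0.322), Gbp7 (0.516), Oasl2 (0.255) and Igtp. Igtp had 21 UMIs in saline and 0 in cisplatin, at least 2.35-fold lower against a floor of 3 UMIs. Without the barcode richest in these genes in each library, Oasl2, Gbp3 and Gbp7 were no longer called. Read apart, the arterial gate (22 measured) had Ifi27l2a at 0.517 and Trim30a, a regulator of innate signalling, with 41 UMIs in saline and 0 in cisplatin, at least 1.36-fold lower (background 5.56% lower, 2.44% higher). The large-vessel gate (16 measured) had Ifitm2 at 1.67, Bst2 at 0.622 and Ifi27l2a at 0.663 (background 6.48% higher, 13.5% lower). Pericyte and smooth muscle markers stood at 72.2 CPM in the saline and 1707 CPM in the cisplatin large-vessel gate, and their part was not tested.

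In the glomerular gate, with 15 saline barcodes, 13 genes were measured. Ifitm3 stood at 537 CPM in saline (9 UMIs) and 1061 CPM in cisplatin (460 UMIs), 1.98-fold (1.03 to 4.35), and Rsad2 at 298 CPM (5 UMIs) and 76.1 CPM (33 UMIs), a ratio of 0.255 (0.0990 to 0.838). The backgrounds were 1.87% higher and 3.60% lower. As sets, type I genes were at 0.472 (0.274 to 0.882) and IFN-gamma genes at 0.468 (0.246 to 1.0). Without barcodes that held UMIs of markers of another class, which left 6 saline and 3 cisplatin barcodes, the type I ratio turned to 2.63 and that of Rsad2 to 2.36.

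In tubule barcodes 4 of 24 measured genes were higher in cisplatin, against 3.57% of all genes, and 0 lower, against 5.41%. Ifitm3 rose from 61.9 CPM (8 UMIs) to 242 CPM (278 UMIs), 3.92-fold (1.96 to 9.17), and Ifitm2 from 38.7 CPM (5 UMIs) to 133 CPM (153 UMIs), 3.45-fold (1.45 to 10.8). Ifi27l2a rose from 15.5 to 61.9 CPM (2 and 71 UMIs; 4.00, 1.07 to 33.7) and Parp14 from 7.73 to 48.8 CPM (1 and 56 UMIs; 6.32, 1.09 to 254). The saline counts behind these ratios are small. As a set, the shared genes were 2.10-fold higher (1.55 to 2.91), whereas type I genes were at 1.13 (0.830 to 1.58) and IFN-gamma genes at 0.936. A single cisplatin barcode of 46109 UMIs held 24.2% of the gate's type I UMIs. Without the richest barcode of each library Ifitm2 (3.68) and Ifitm3 (2.73) were still called, while Ifi27l2a (2.84) and Parp14 (5.17) were not. With barcodes thinned to 500 UMIs 0 of 13 measured genes were called, and in the stricter gate 0 of 1, where Ifitm3 turned to 0.783.

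For leukocytes, 7 genes were measured between treatments and 0 were called (background 3.64% higher, 5.64% lower). The shared set was at 1.85 (1.06 to 3.60), with 3 saline barcodes behind it.

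Free RNA also differed between libraries. Of 41 measured genes 8 were higher in cisplatin, against 14.4% of all, and 9 lower, against 20.7%. Ifit3 (2.80), Irf7 (2.40) and Ifitm3 (1.62) were higher there as in the capillary gate, and Parp14 (0.635) and Ifi44 (0.593) lower as in the capillary gate. Ifit1 was lower in free RNA (0.660) and higher in capillaries. Igtp (1.84), Rtp4 (1.59), Nlrc5 (1.58), Ifi35 (1.58) and Irgm1 (1.54) were the other higher genes. Gbp5 (0.216), Gbp6 (0.433), Gbp3 (0.490), Iigp1 (0.528), Rsad2 (0.547) and Gbp4 (0.631) were the other lower ones. As a set, type I genes were at 0.907 (0.834 to 0.986) with all UMIs as the denominator and at 1.16 without mitochondrial genes, Malat1 and Neat1, so their direction in free RNA depends on the mitochondrial share.

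Upstream of these genes, the ligands were nearly absent. Of 9 interferon genes found, all had 0 UMIs in the endothelial and tubule gates of both libraries. Ifnb1, which encodes interferon beta, had 5 UMIs in the cisplatin leukocyte gate, all in 1 of 62 barcodes, and 1 UMI in cisplatin free RNA. Ifng, which encodes interferon gamma, had 0 UMIs in the gates, which in the cisplatin leukocyte gate allows up to 22.1 CPM, and 2 UMIs in cisplatin free RNA. Receptor genes were counted in every endothelial gate, though not each chain in each library. Ifnar1 and Ifngr1 had 0 UMIs in saline glomerular barcodes, and Ifnar1 and Ifngr2 had 0 in cisplatin arterial barcodes. In capillaries Ifnar2 stood at 238 and 248 CPM and Ifngr1 at 117 and 146 CPM in saline and cisplatin, while Ifnar1, the other chain of the type I receptor, fell from 157 to 60.4 CPM (47 and 19 UMIs; 0.384, 0.213 to 0.667).

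Of 37 pathway genes 15 were measured in capillaries, where 1 was higher and 2 were lower in cisplatin, counting Ifnar1, which is near the background of 9.44% and 12.1%. Socs3, an inducible inhibitor of JAK-STAT signalling, rose from 6.69 to 57.2 CPM (2 and 18 UMIs; 8.55, 2.05 to 76.0). Irf2, a repressor at interferon response elements, fell from 221 to 130 CPM (66 and 41 UMIs; 0.590). Socs3 (8.07), Ifnar1 (0.592) and Irf2 (0.617) moved the same way in free RNA, and its part in the capillary values was not tested.

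Across cell types, several receptor chains were also lower outside the capillary gate. In saline, 6 of 15 measured pathway genes were lower in larger vessels than in capillaries, against 10.5% of all genes, and 0 were higher, against 10.1%. Among them were Ifnar1 (0.501), Ifnar2 (0.613), Il10rb (0.653), the kinase Tbk1 (0.486) and Irf2 (0.659). In cisplatin, 5 of 16 were lower in glomerular than in capillary barcodes, against 6.99%, and 1 was higher, against 11.6%. Ifnar2 (0.354), Ifngr1 (0.552), Il10rb (0.287) and the RNA sensor Ddx58 (0.251) were among the lower genes, while Stat3, the transducer of interleukin 6 family cytokines, was higher (2.00). Of 16 measured in leukocytes against capillaries, 3 were higher, against 13.5%, and 2 lower, against 30.4%. Leukocytes exceeded cisplatin capillaries in the haematopoietic factors Irf5 (17.0) and Irf8 (5.67) and in the phosphatase Ptpn6 (66.1, with 1 capillary UMI), and were lower in Ifnar2 (0.557) and Il10rb (0.447). Between treatments, 15 pathway genes were measured in larger vessels, where Ifngr1 (1.75) and Irf3 (2.52) were higher, against 6.33% of all genes, and Il10rb (0.482) was lower, against 11.5%. Of 12 measured in glomerular barcodes Irf2 (0.292) was lower, against 3.60%, and 0 were higher, against 1.87%. In the tubule gate 0 of 19 measured pathway genes were called (background 3.57% higher, 5.41% lower), and in the leukocyte gate 0 of 7 (background 3.64% and 5.64%).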

How the data were processed

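As deposited by the authors, each library is a matrix of raw, unfiltered UMI counts without normalization. Reads were processed with Cell Ranger 6.0.1 and mm10, per the submitters' processing notes, while the matrices carry a Cell Ranger 4 mark, per the file headers. The droplet kit reads the 3′ end of transcripts, per the labels' protocols. The authors' list of cells was not used here.

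Barcodes with at least 500 UMIs and at most 20% mitochondrial UMIs were kept. A barcode entered the leukocyte gate first, where leukocyte markers made up at least 1% of its UMIs (at least 3 UMIs) and outnumbered endothelial markers. The endothelial gate took barcodes with at least 1% endothelial markers, outnumbering tubule markers, and leukocyte markers under 1%. The tubule gate took barcodes with at least 1% tubule markers and with endothelial and leukocyte markers each under 1%. Endothelial barcodes were split by which of 4 subtype lists had the most UMIs (at least 3). Gate names therefore rest on markers alone. UMIs were summed per gate and library and expressed as CPM. With 1 library per treatment no statistical test was made. Genes at 0 UMIs were set against a floor of 3 UMIs. Log2 ratios had 0.5 UMI added. Thinning drew 500 UMIs per barcode without replacement, and no barcode was shallower. The calculations were tested on simulated data. Python 3.11.15, numpy 2.4.6, pandas 2.3.3, scipy 1.17.1 and matplotlib 3.10.9 were used.

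The 41 genes, the sets, the marker lists and the pathway genes were chosen with earlier results of these data known. Genes named with values are those called in a gate, up to 3 leading genes per set and gate, and Ifng and Ifnb1; other genes with values were chosen after their values were seen. Alternatives covered the limits on UMIs and mitochondrial share, gate strictness, free RNA, denominators, weighting, thinning and left-out barcodes. Of 39 pathway symbols 37 were found, and 1 of these is not reported here.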

Additional observations from a re-analysis of the deposited data

Results flagged for a closer look

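Interferon-stimulated genes were also counted in barcodes that entered no gate. In kept barcodes without a gate the 41 genes stood at 4432 CPM in saline (70 barcodes) and 1666 CPM in cisplatin (417 barcodes). In barcodes of over 100 but under 500 UMIs they stood at 1528 CPM in saline (5997 barcodes) and 1276 CPM in cisplatin (69597 barcodes). In barcodes of at least 500 UMIs with more than 20% mitochondrial UMIs they stood at 894 CPM in cisplatin (1712 barcodes), where the type I set was at 254 CPM, or 549 CPM without mitochondrial genes, Malat1 and Neat1. For comparison, the 41 genes stood at 1387 CPM in saline and 1444 CPM in cisplatin free RNA, with all UMIs as the denominator. The cisplatin values of 1276 and 894 CPM lay below that level, so they show no excess over free RNA. The saline library held 3 barcodes of at least 500 UMIs with more than 20% mitochondrial UMIs, with 1 UMI of these genes.

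Opposite calls were found for 2 genes between gates, and the difference itself was not tested. Parp14 had a cisplatin to saline ratio of 0.382 in the capillary and 6.32 (1.09 to 254) in the tubule gate. Ifi27l2a was at 0.517 in the arterial, 0.663 in the large-vessel and 0.570 in the combined gate, and at 4.00 (1.07 to 33.7) in the tubule gate. The tubule ratios rest on 1 saline UMI for Parp14 and 2 for Ifi27l2a. Neither gene was called there without the richest barcode of each library.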

How the results depend on the processing

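Across the alternatives run, the type I ratios of the saline arterial, the cisplatin glomerular and both tubule gates to the capillary gate stayed below 1. At the upper end of the cisplatin glomerular range the interval included 1. No range is given here for the cisplatin arterial gate or for the large-vessel gate alone. Saline arterial over capillary ranged from 0.228 to 0.338, cisplatin glomerular from 0.0901 to 0.556, saline tubule from 0.0614 to 0.156 and cisplatin tubule from 0.0638 to 0.235. Cisplatin leukocyte over capillary ranged from 0.214 to 1.15 (0.658 to 1.98 at under 1000 UMIs). Ratios of cisplatin to saline were less steady, and the cause was not tested. No paired analysis was possible because each group has 1 library.

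In capillaries the type I ratio was 1.15 with a minimum of 1000 UMIs, 1.03 in the stricter gate, 1.02 with free RNA subtracted, 0.619 with equal weight per barcode, 0.667 thinned, 0.542 without barcodes holding markers of another class and 0.310 in barcodes of under 1000 UMIs. The IFN-gamma ratio was 1.20 in the stricter gate and 0.50 at under 1000 UMIs, where Ifit1 (0.732), Irf7 (0.627) and Ifitm3 (0.946) turned. Against 4 higher and 5 lower capillary genes, the counts were 10 and 3 in the stricter gate, 9 and 4 with free RNA subtracted, 7 and 5 with a minimum of 300 UMIs, 6 and 3 with 1000, 2 and 3 at a fold of 2, 2 and 2 without other-class markers, 1 and 4 thinned and 0 and 5 at under 1000 UMIs.

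Without barcodes holding markers of another class, glomerular ratios were 2.63 for type I, 0.175 for IFN-gamma, 2.36 for Rsad2 and 0.525 for Ifitm3. Tubule ratios were then 0.828 for type I, 1.63 for IFN-gamma and 0.813 for Ifi27l2a. Ifitm3 in the stricter tubule gate was at 0.783. Against 4 higher tubule genes, 0 were called thinned, in the stricter gate or without other-class markers, 1 at under 1000 UMIs and 2 without the richest barcode. The arterial type I ratio was 0.599 at a 10% mitochondrial limit, 2.20 in the stricter gate and without other-class markers, 0.579 thinned and 1.56 without the richest barcode, and IFN-gamma was 0.254 at 10%. The large-vessel type I ratio was 4.13 without other-class markers, 0.666 without the richest barcode and 0.694 at under 1000 UMIs. Large-vessel IFN-gamma was 0.521 in the stricter gate, 0.296 thinned and 0.462 at under 1000 UMIs. In the combined gate Gbp7 was at 1.16 with equal weight and 1.61 at under 1000 UMIs, Ifi27l2a at 1.29 thinned and 4.02 at under 1000 UMIs, and Bst2 at 1.44 without other-class markers.

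In free RNA the type I ratio was 0.736 for 1 to 50 UMIs, 0.573 for 1 to 20 and 1.16 without mitochondrial genes, Malat1 and Neat1, and IFN-gamma was 0.674, 0.508 and 1.12. Barcodes of under 1000 UMIs alone and the combined larger-vessel gate were added after seeing the data. The saline leukocyte gate, with 0 type I UMIs, gave no ratio. At 20 UMIs per measured gene, small changes in single genes were not detectable.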
